A study of Mus musculus with 16 samples.

Results

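The small leucine-rich proteoglycans followed here are Aspn, Bgn, Dcn, Fmod, Lum, Ogn, Omd, Podn and Prelp, chosen by name: every non-control array probe that carries one of these 9 gene symbols, among 34650 gene names on the array. Each gene had 1 probe, so 9 of 55681 probes were followed and no second probe checks any of them. To be tested, a probe had to stand well above background across the 4 arrays of some group. This held for 8 of the 9, all but Omd, and for 32430 of all probes (58.2%). Gene expression was measured with 16 one-colour arrays (Cy3) of total RNA from primary mouse lung fibroblasts, cells grown out of lung tissue and passaged before use. The cells had been transfected in 6-well plates with a small interfering RNA (siRNA) 48 hours before harvest, and the labels name no strain, sex or age.

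The control group, scr, received a scrambled siRNA, and the other groups received an siRNA against lysyl oxidase (siLox), lysyl oxidase-like 1 (siLoxL1) or lysyl oxidase-like 2 (siLoxL2), with 4 arrays each. All groups thus share the passaging and the transfection, there is no untransfected group, and the labels do not say how many siRNA sequences were used per gene or whether replicates were separate cultures. P-values therefore measure only the spread between these samples, and the number of arrays limits the precision. The title of the series names exogenous expression, but the sample labels describe siRNA, and the labels are followed here. The scr and siLox arrays lay on 1 slide and the siLoxL1 and siLoxL2 arrays on another, scanned separately, so siLox can be compared with scr, and siLoxL1 with siLoxL2, within a slide. For siLoxL1 or siLoxL2 against scr, the siRNA and the slide cannot be told apart.

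Small leucine-rich proteoglycans are secreted matrix proteins with a curved core of leucine-rich repeats, and most carry chondroitin, dermatan or keratan sulphate chains. Many bind collagen fibrils and set how fibrils grow and pack, and decorin and biglycan also bind growth factors such as TGF-beta and cell-surface receptors. Lysyl oxidases act on the same fibrils: they oxidise lysines of collagen and elastin, the step that starts covalent cross-linking. In lung these proteoglycans are made mainly by fibroblasts and related mesenchymal cells.

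Levels below are log2 signals minus the array's own 75th percentile (log2), and a level of one probe says nothing against that of another probe. Of 59305 non-control spots, 49.2% to 52.3% on slide 1 and 60.4% to 63.1% on slide 2 exceeded background, and the median SD within a group was 0.183 in scr and 0.145 in siLox against 0.100 in siLoxL1 and 0.0979 in siLoxL2. Lox, the first target, read 4.16, 4.08, 4.15 and 3.88 with the scrambled siRNA (replicates 1 to 4) but 0.39, 0.89, 1.25 and 2.04 with its own siRNA. It was lower in siLox by a log2 difference of −2.92 ± 0.31 (SE, n = 4 arrays per group, limma adjusted p = 0.00387). Loxl1 was lower in siLoxL1 than in siLoxL2 (means 4.60 and 5.75, −1.15 ± 0.057, adjusted p = 0.000223). Loxl2 had a mean of 6.45 in scr, 5.73 in siLox, and a difference of 0.30 ± 0.082 between siLoxL1 and siLoxL2 that did not pass (adjusted p = 0.0645). A lower Loxl2 with its own siRNA was thus not shown at the threshold within a slide. Against scr, siRNA and slide cannot be told apart.

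The fibroblast label was checked against markers. Col1a1 (6.84 ± 0.071, SD, n = 4, in scr), Thy1 (5.86 ± 0.29) and Pdgfra (1.65 ± 0.23), with all 10 fibroblast markers, were well above background on every array. Of the epithelial markers, Epcam, Cdh1, Sftpb, Sftpc, Nkx2-1 and Foxj1 were on no scr or siLox array, though the keratins Krt18 (2.00 ± 0.31 in scr) and Krt8 (0.96 ± 0.14) were on all of them, Scgb1a1 was on 4 scr and 2 siLox arrays and Ager was on 1 siLox array. Of 12 leukocyte and macrophage markers 11 were above background on every array, with Itgam at 3.80 ± 0.094 and Csf1r at 2.24 ± 0.19 in scr.

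**Figure D1:**
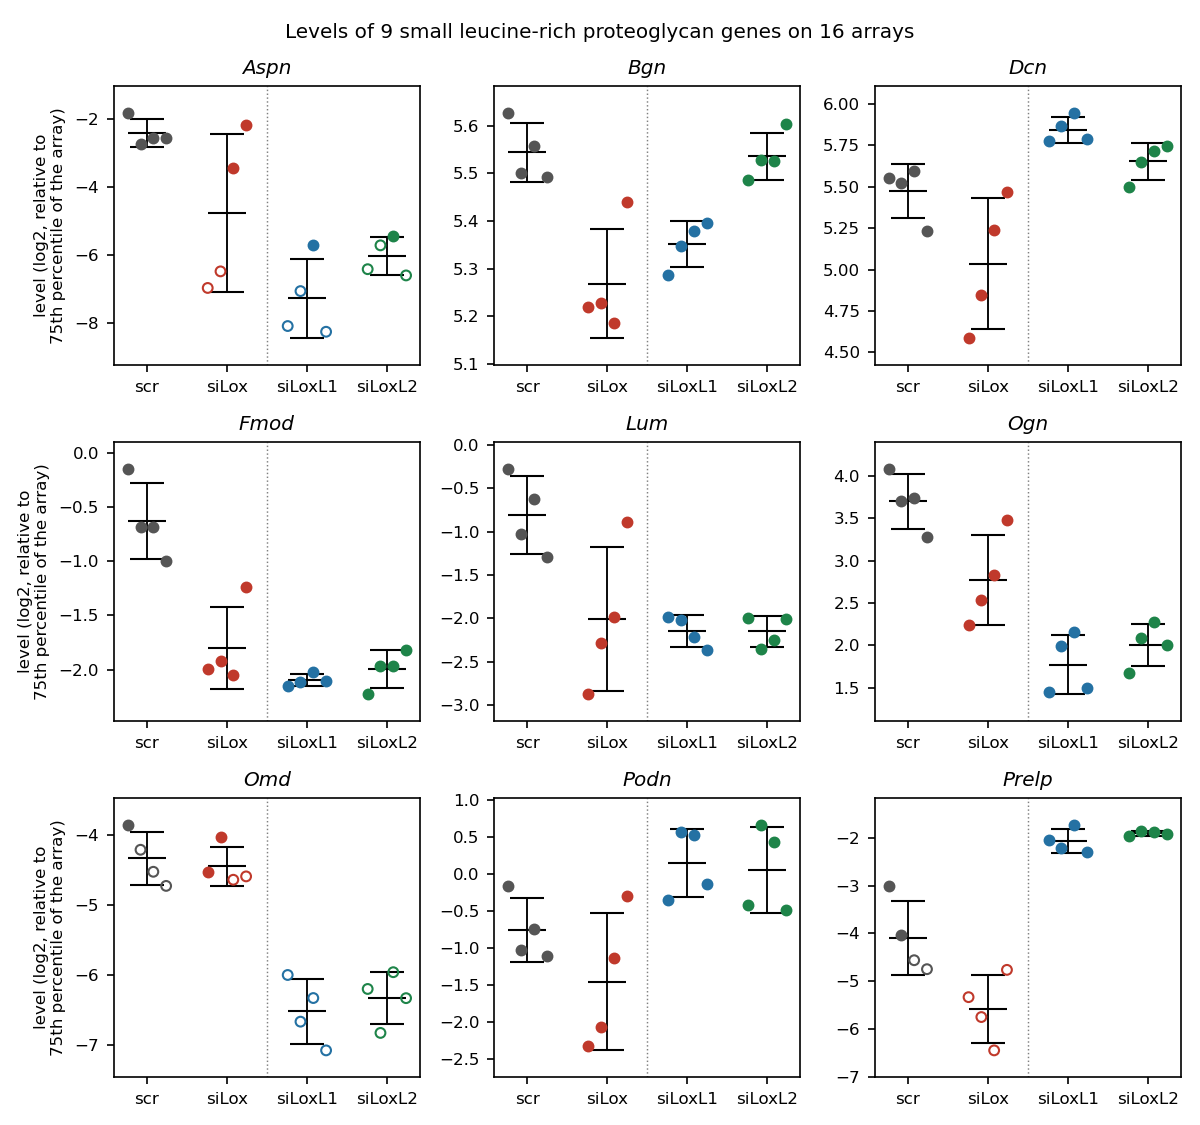
Level of each of the 9 genes on each of the 16 arrays (vertical axis, log2 minus the array's 75th percentile, with its own scale per gene; horizontal axis, siRNA group), with the mean and SD of 4 arrays as bars. Open circles mark arrays on which the probe was not well above background, and the dotted line parts the slides. Fmod and Bgn show 4 siLox arrays below the 4 scr arrays, and Prelp stands higher on slide 2 than on slide 1.

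After the siRNA against Lox, transcripts of Fmod and Bgn were lower than with the scrambled siRNA, and none of the 8 tested proteoglycan genes was higher. Fmod fell to 44.3% of its scr level and Bgn to 82.6%. The mean difference was below 0 for each of the 8 genes, but Ogn, Prelp, Lum, Dcn, Aspn and Podn did not pass the threshold. The median of the 8 was −1.05, against −0.047 over all probes tested. The values of Aspn and Prelp in it rest partly on signals not above background, and no siLox array measured Prelp. Aspn entered the test only through scr, where it is high, so its sign and its part in the median support nothing further. Of all probes, 21.1% passed in this comparison, 9.67% higher and 11.5% lower, so 2 of 8 is a count near the background of the slide. In bulk RNA such as this, fewer cells of a type and less RNA per cell cannot be told apart.

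Fibromodulin, the product of Fmod, belongs to the keratan sulphate class of the family and binds collagen type I fibrils. Fmod read −0.15, −0.68, −0.68 and −0.996 in scr (replicates 1 to 4, the order used throughout), against −1.99, −1.92, −2.05 and −1.24 in siLox. The groups did not overlap, and siLox replicate 4 stood nearest to scr. The difference was −1.17 ± 0.23 (95% interval −1.71 to −0.63, limma adjusted p = 0.0180), with an exact two-sided permutation p of 0.0286, the smallest that 4 against 4 arrays allow. Without siLox replicate 1, 2 or 3 or scr replicate 3 the adjusted p was 0.0531 to 0.0553.

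Biglycan, from the X-linked gene Bgn, carries chondroitin or dermatan sulphate chains and belongs with decorin to the first class of the family. Bgn read 5.63, 5.50, 5.56 and 5.49 in scr, against 5.22, 5.23, 5.19 and 5.44 in siLox. Again all siLox arrays lay below all scr arrays, by a margin that was small at replicate 4. The difference was −0.28 ± 0.075 (adjusted p = 0.0400, exact permutation p = 0.0286). The call was lost without any 1 of siLox replicates 1 to 3 or scr replicates 1 to 3 (adjusted p = 0.0758 to 0.106), and also when arrays were scaled by their median (0.0542) or dim probes were kept in the test (0.102).

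The array reads each gene through 1 probe, whose first 30 bases (of 60) are shown for both genes that passed, since the calls rest on these oligonucleotides. The Fmod probe lies on chromosome 1 from 135943998 to 135944057, plus strand, and the Bgn probe on chromosome X from 70738554 to 70738613, plus strand (mouse build mm9, positions of the scanner files).
Fmod: ggcaagcgtggttttcaaaacatgagaaag
Bgn: caatcagattcggatgattgagaatgggag
The 250 bases before their gene starts, from RefSeq (assembly GRCm38.p6), follow, as the only promoters of genes that passed within a slide. Capitals mark matches on either strand to the motifs searched: the TATA element TATAAA, the CAAT element CCAAT, the Sp1 element GGGCGG and the AP-1 element TGACTCA.
Fmod, chr1:134037004-134037253, plus strand: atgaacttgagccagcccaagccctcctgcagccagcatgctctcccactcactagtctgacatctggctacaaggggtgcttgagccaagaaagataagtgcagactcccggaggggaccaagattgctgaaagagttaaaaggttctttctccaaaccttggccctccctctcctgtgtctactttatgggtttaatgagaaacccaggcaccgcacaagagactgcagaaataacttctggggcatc
Bgn, chrX:73483351-73483600, plus strand: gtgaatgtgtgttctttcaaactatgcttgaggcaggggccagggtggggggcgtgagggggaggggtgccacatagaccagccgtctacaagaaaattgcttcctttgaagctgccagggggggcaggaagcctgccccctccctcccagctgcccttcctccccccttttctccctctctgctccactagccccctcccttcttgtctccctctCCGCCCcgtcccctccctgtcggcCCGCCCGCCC
The Fmod window held none of the 4 motifs, and the Bgn window held GGGCGG at 3 places on the minus strand, a pair of them overlapping, all within its last 34 bases. GGGCGG was found in 2 of 8 windows of the family (Bgn and 1 of the pair for Podn) and in 32.7% of 32851 windows of the same length. A match is a string of letters and not a binding site.

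Prelp encodes a basic family member that anchors basement membranes to the matrix beneath and stood at or near background on slide 1. Its levels were −3.02, −4.04, −4.56 and −4.75 in scr, against −5.34, −5.75, −6.45 and −4.77 in siLox. It was well above background on 2 of the 4 scr arrays and on none in siLox. The difference did not pass (adjusted p = 0.0579), and no fold is given, since siLox has no measured level. The groups lay apart only by the gap between −4.75 and −4.77, and neither of these signals was above background. Groups thus did not overlap for 2 genes on measured levels, Fmod and Bgn, and for Prelp on background signals, 3 of 8 in all, against 28.7% of all probes, 15.9% in the lower direction.

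Ogn and Lum came closest to the threshold among the genes measured on every array. Osteoglycin (Ogn), also called mimecan, belongs to the third class of the family. It read 4.08, 3.70, 3.74 and 3.28 in scr, against 2.24, 2.53, 2.83 and 3.48 in siLox, where replicate 4 lay above scr replicate 4. The difference was −0.93 ± 0.28 (adjusted p = 0.0507, exact permutation p = 0.0571), and it passed without siLox replicate 4 (−1.17, adjusted p = 0.0214) or scr replicate 4 (−1.07, adjusted p = 0.0341). Without any 1 of the other arrays the limma adjusted p rose to between 0.102 and 0.121. Lumican (Lum), a keratan sulphate proteoglycan known for the ordered fibrils of the cornea, read −0.28, −1.03, −0.63 and −1.29 in scr, against −2.88, −2.28, −1.99 and −0.89 in siLox. Its siLox replicate 4 stood among the scr arrays and the other siLox arrays below them. The difference was −1.20 ± 0.42 (adjusted p = 0.0770), and −1.57 without siLox replicate 4 (adjusted p = 0.0235). Without any 1 of the other arrays the limma adjusted p of Lum was 0.0643 to 0.170.

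Asporin (Aspn), of the same class as decorin, carries an aspartate-rich stretch in place of the glycosaminoglycan chain and binds TGF-beta and collagen. Its scr levels were −1.83, −2.74, −2.55 and −2.55, and its siLox levels −6.96, −6.48, −3.44 and −2.17, the first pair of them not above background. The siLox arrays were spread over more than the whole distance between the group means (SD 2.33 against 0.40 in scr), and the difference of −2.35 ± 1.04 did not pass (adjusted p = 0.138). Decorin (Dcn), the best known TGF-beta binder of the family, read 5.55, 5.52, 5.59 and 5.23 in scr and 4.58, 4.85, 5.24 and 5.47 in siLox (−0.44 ± 0.20, adjusted p = 0.137). Podocan (Podn) read −0.16, −1.02, −0.75 and −1.11 in scr and −2.33, −2.06, −1.14 and −0.30 in siLox (−0.70 ± 0.45, adjusted p = 0.288).

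In Aspn, Dcn and Podn the siLox replicates ran from clearly below scr to level with it. Osteomodulin (Omd), a keratan sulphate member best known from bone, was well above background on 1 scr and 2 siLox arrays only, with means of −4.33 and −4.44, and was not tested. In all, the count of called genes was 6 of 8 without siLox replicate 4 (19.4% of all probes), 4 without scr replicate 4 (30.6%), 1 without scr replicate 1 or 2 (12.4% and 8.55%), and 0 without siLox replicate 1, 2 or 3 or scr replicate 3 (5.38% to 7.13%). Without both replicates 4 it was 6 of 8 (9745 of all 32430 probes). Prelp was among the called genes in each of the counts without a replicate 4, and Aspn in the first, and both rest there on siLox signals that were mostly not above background.

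**Figure D2:**
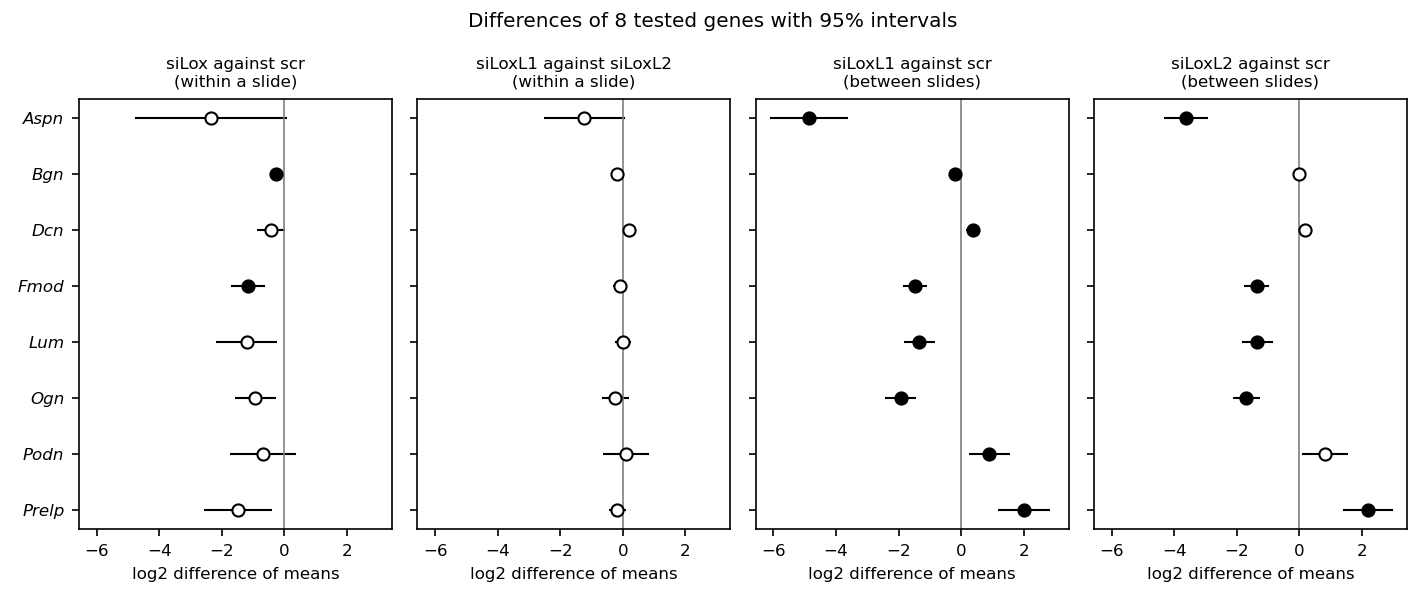
Difference of group means (horizontal axis, log2) of the 8 tested genes in 4 comparisons, with 95% intervals of the limma fit as lines; filled points passed the adjusted threshold of 0.05 and open points did not. Values of Aspn in every comparison, and of Prelp in those with scr, rest partly on signals not above background. Within a slide, 2 genes passed for siLox against scr and 0 for siLoxL1 against siLoxL2.

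Lox itself varied across the siLox arrays, from 0.39 to 2.04, and 5 of the 8 genes ranked these 4 arrays exactly as Lox did: Aspn, with 2 of them not above background, Dcn, Lum, Ogn and Podn. Of all probes tested, 9.52% had that order and 8.42% the opposite one. The 5 genes also varied together on slide 1, so they are not separate observations. Pearson's r between their deviations from the group means was 0.852 to 0.981 there. Across the 4 scr arrays Bgn, Lum, Ogn and Podn ranked the arrays as Lox did (4 of 8). In scr 11.1% of all probes had the order of Lox and 13.5% the opposite one. On slide 2 the count was 0 of 8 in siLoxL1 (5.34% of all probes) and 0 of 8 in siLoxL2 (3.89%). The replicate number is also the slide column, so Lox and the column ranked the siLox arrays alike, and the part of the column in this order was not tested.

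**Figure D3:**
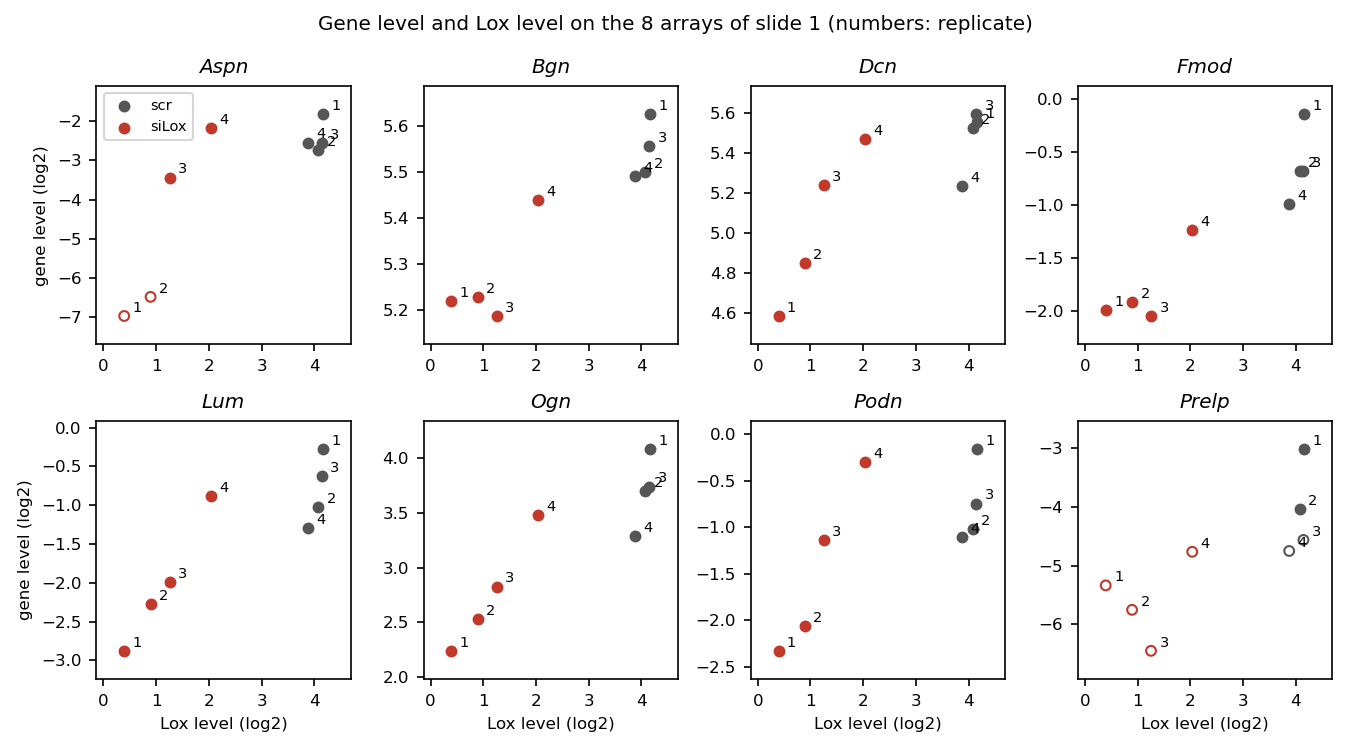
Level of each of the 8 tested genes (vertical axis, log2, own scale per gene) against the level of Lox (horizontal axis, log2) on the 8 arrays of slide 1, with replicate numbers; open circles mark arrays on which the gene was not well above background. In Aspn, Dcn, Lum, Ogn and Podn the siLox arrays stand in the order of their Lox levels, from 0.39 to 2.04.

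Markers of the cells moved in the same comparison, in which 21.1% of all probes passed (25% with 1 probe per gene). The summed linear signal of the 10 fibroblast markers, relative to the 75th percentile, ranged from 849 to 1090 in siLox and from 1203 to 1285 in scr, and 4 of 10 (Thy1, S100a4, Fbln1 and Col1a2) fell, with Thy1 at −0.84 ± 0.16 (adjusted p = 0.0163). The 12 leukocyte and macrophage markers summed to 25.7 to 31.4 in siLox and 23.6 to 29.2 in scr. Of the 11 tested only Marco passed, as higher (1.08 ± 0.16, adjusted p = 0.00866), and the brightest, Itgam (−0.039 ± 0.088) and Csf1r (0.11 ± 0.11), did not pass. The median difference of the 11 was 0.45, against −0.45 for the fibroblast markers and −0.047 over all probes. The 10 pericyte and smooth muscle markers summed to 818 to 1041 in siLox and 1011 to 1148 in scr, with 4 lower and 1 higher of 9 tested; the brightest, Acta2 and Tagln, differed by −0.21 ± 0.090 and −0.19 ± 0.082 and did not pass. Of 7 mesothelial markers 4 fell and 1 rose, Krt19 (0.77 ± 0.13, adjusted p = 0.0132), and Msln (−0.22 ± 0.088) did not pass. Of 7 endothelial markers 1 rose, Egfl7 (0.25 ± 0.053, adjusted p = 0.0213), and Kdr (−0.26 ± 0.16) did not pass. Of 3 tested epithelial markers 0 passed, and of 8 tendon, cartilage and bone markers 1 fell and 1 rose, with Sox9 at 0.35 ± 0.10 (adjusted p = 0.0465) and Scx at 0.41 in scr and 0.25 in siLox. Of the 10 endothelial genes, Egfl7, Kdr, Emcn, Pecam1 and Vwf were above background on every scr and siLox array, Cdh5 on 4 scr and 2 siLox arrays, Cldn5 on 2 of each, and Erg, Tek and Tie1 on none. The part of the cell mixture in the proteoglycan values was not tested.

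Between the siRNAs against Loxl1 and Loxl2, no proteoglycan gene passed: 0 of 8 by limma, against 6.73% of all probes, 4.41% higher and 2.32% lower in siLoxL1. With median scaling in place of the 75th percentile, 80.1% of all calls were in the higher direction instead of 65.5%. That share was 39.8% with the replicate block, 41.7% with dim probes kept and 43.1% to 57.1% without 1 array. At an unadjusted limma p under 0.05 the count was 2 of 8, Bgn and Dcn, against 25.4% of all probes, and their groups did not overlap, as in 19.0% of all probes. Bgn read 5.29, 5.35, 5.38 and 5.40 in siLoxL1 and 5.49, 5.53, 5.52 and 5.60 in siLoxL2. All siLoxL1 arrays were lower, by −0.18 ± 0.045 (adjusted p = 0.0506, exact permutation p = 0.0286), and the authors' deposited value table put the difference at −0.24 (adjusted p = 0.0257). Dcn stood the other way, at 5.77, 5.86, 5.94 and 5.79 in siLoxL1 and 5.50, 5.65, 5.72 and 5.75 in siLoxL2 (0.19 ± 0.067, adjusted p = 0.128, exact permutation p = 0.0286).

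The other genes of the family overlapped between siLoxL1 and siLoxL2. Fmod differed by −0.10 ± 0.085, with 95% limits of −0.30 and 0.091, and Lum by 0.0048 ± 0.11, with limits of −0.26 and 0.27. Ogn read 1.45, 1.99, 2.15 and 1.50 in siLoxL1, against 1.68, 2.09, 2.27 and 2.00 in siLoxL2 (−0.24 ± 0.19). All 3 intervals include 0. In each same-numbered pair of arrays Ogn was lower in siLoxL1, and with the replicate block its limma adjusted p was 0.157. Podn read −0.35, 0.56, 0.52 and −0.14 in siLoxL1 and −0.42, 0.66, 0.43 and −0.48 in siLoxL2, higher on replicates 2 and 3 in both. In this fit without a replicate term it had the widest interval among the genes measured on every array, from −0.64 to 0.84. With the replicate block its limma adjusted p was 0.451. Prelp differed by −0.17 ± 0.12. Aspn was above background on 1 of 4 arrays in each group (−8.25 to −5.70 and −6.59 to −5.42), and Omd on none, so neither gives a measured difference there. Of the 10 fibroblast and 11 leukocyte and macrophage markers tested between these groups 0 passed. The marker Fn1 read −2.60 on siLoxL1 replicate 4 and 8.25 to 8.33 on the other siLoxL1 arrays. The leukocyte sums were 34.4 to 37.4 in siLoxL1 and 37.6 to 40.9 in siLoxL2.

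Across the slides the family divided. Against scr, Aspn, Ogn, Fmod and Lum were lower and Prelp was higher in both siLoxL1 and siLoxL2, but most probes of the array passed in both comparisons (59.2% in siLoxL1, 38.5% higher and 20.7% lower; 58.3% in siLoxL2, 36.7% higher and 21.7% lower). Both use the same scr arrays, so their values are given side by side and are not independent of each other. In siLoxL1 8 of 8 tested genes passed, 3 higher and 5 lower, and in siLoxL2 5 of 8, 1 higher and 4 lower. Aspn was measured on every array in scr alone and Prelp in siLoxL1 and siLoxL2 alone, so each entered the test only through the side where it is high, and their calls support nothing further. Arrays were fully separated from scr for 7 of 8 genes in siLoxL1, 2 higher and 5 lower (55.6% of all probes, 36.3% higher and 19.3% lower), and for 5 of 8 in siLoxL2, 1 higher and 4 lower (54.9%, 34.8% higher and 20.1% lower). The median over all probes was itself shifted, by 0.18 in siLoxL1 and 0.16 in siLoxL2. The share of calls in the higher direction was 65.1% and 62.9%, against 54.8% and 52.8% in the authors' deposited value table, 47.3% and 46.9% with the median difference set to 0, and 37.2% and 36.4% with dim probes kept. With the median difference set to 0, Ogn, Fmod and Lum kept their direction and their call in both comparisons.

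Cell markers stood apart across the slides too. The 10 epithelial markers summed to 0.538 to 0.714 in siLoxL1 and 0.552 to 0.634 in siLoxL2 against 4.86 to 7.19 in scr. These sums rest mainly on keratins: Krt18 at −1.29 ± 0.20, −1.41 ± 0.081 and 2.00 ± 0.31 (SD, n = 4), and Krt8 at −3.28, −3.40 and 0.96. Of the others, Scgb1a1 stood at −4.32, −4.25 and −4.23, and 7 of the 10 were above background on no scr array. The fibroblast sums were 1095 to 1445, 1298 to 1397 and 1203 to 1285, and without Fn1 1082 to 1135, 1003 to 1093 and 939 to 1020. In the mesothelial list Krt19 stood at 4.01, 4.07 and 1.68, but Wt1 at 0.073, −0.18 and 2.45. Of 7 tested mesothelial markers, 2 passed as higher and 5 as lower in each comparison with scr. Their part in the proteoglycan values was not tested.

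Aspn and Ogn are neighbours on chromosome 13, with Omd between them, and all 3 had lower means in siLoxL1 and siLoxL2 than in scr. On slide 1 itself, Aspn read −6.96 and −6.48 on siLox replicates 1 and 2, below every siLoxL2 array or all but 1 of them. Aspn lay between −2.74 and −1.83 in scr and at −5.42 or below on slide 2, where only 1 array of each group measured it, so the size of the difference is not given. Ogn, measured everywhere, was −1.93 ± 0.21 (adjusted p = 0.000148) and −1.69 ± 0.19 (adjusted p = 0.000155), with 26.3% and 30.9% of its scr level. Omd had means of −6.52 in siLoxL1 and −6.33 in siLoxL2 against −4.33 in scr, which 1 of 4 scr arrays measured. It was not tested and no fold is given, since genes not above background on any array also read lower on slide 2 (Erg, −6.38 in scr, −8.12 in siLoxL1 and −8.00 in siLoxL2). The same limit holds for the Aspn signals of slide 2, most of which were not above background.

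The probes of these neighbours lie in the order Ecm2, Aspn, Omd and Ogn, with starts 34.4, 25.4 and 31.7 kb apart in mm9, all on the plus strand: Aspn from 49662479 to 49662538, Omd from 49687847 to 49687906 and Ogn from 49719549 to 49719608. The first 30 probe bases of Aspn and Ogn hold the polyadenylation hexamers AATAAA and ATTAAA, shown in capitals, as does that of Prelp, the gene that stood the other way.
Aspn: ctcaactcatAATAAAgcttcaagtattca
Ogn: cATTAAAgcatctgtgaactgtaaggccac
Prelp: gaAATAAAgtcatatggaaaacacccagca
A hexamer was found in 3 of 9 probes of the family and in 13.7% of all 55681 non-control probes. The promoter windows of Aspn and Ogn are shown as those of neighbours on the chromosome. Of these only Ogn was measured as lower against scr. The Aspn call rests mostly on background signals and supports nothing further, and a shared regulation of the neighbours was not tested. The same motifs are in capitals.
Aspn, chr13:49544193-49544442, plus strand: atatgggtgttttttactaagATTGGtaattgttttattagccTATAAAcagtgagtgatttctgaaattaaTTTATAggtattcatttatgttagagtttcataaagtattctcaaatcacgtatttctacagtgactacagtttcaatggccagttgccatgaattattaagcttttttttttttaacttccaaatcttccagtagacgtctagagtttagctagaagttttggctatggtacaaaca
Ogn, chr13:49607765-49608014, plus strand: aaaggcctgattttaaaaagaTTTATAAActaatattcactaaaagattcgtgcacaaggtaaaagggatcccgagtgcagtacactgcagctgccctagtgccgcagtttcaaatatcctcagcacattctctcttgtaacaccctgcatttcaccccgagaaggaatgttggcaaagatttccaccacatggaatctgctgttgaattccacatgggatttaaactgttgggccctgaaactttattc
Each held TATAAA on both strands, overlapping in Ogn and apart in Aspn, far from the gene start (178 to 229 bases before it). These were the 2 of 8 windows of the family with TATAAA, which 12.4% of all windows hold. CCAAT was in 2 (Aspn and Prelp; 33.8% of all windows) and TGACTCA in 0 (4.46%). The table held windows for 7 of the 9 genes, not for Dcn and Lum.

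Prelp and Fmod lie 137 kb apart on chromosome 1 by their probe starts and stood in opposite directions across the slides. Prelp read −2.04, −2.22, −1.73 and −2.30 in siLoxL1 and −1.97, −1.85, −1.89 and −1.92 in siLoxL2, above background on all 8 arrays and above every array of slide 1. Of the scr arrays only 2 measured it (−3.02 and −4.04), so the size of the difference is not given. Fmod was lower by −1.47 ± 0.16 (adjusted p = 0.000139) and −1.37 ± 0.18 (adjusted p = 0.000366). Lum, 55.0 kb from Dcn on chromosome 10, was lower by −1.34 ± 0.22 in both (adjusted p = 0.00103 and 0.00108).

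Dcn, Podn and Bgn had smaller values whose calls turned on the scaling or on an array. Dcn was higher in siLoxL1 by 0.37 ± 0.092 (adjusted p = 0.00914), but by 0.083 in the authors' deposited value table and 0.012 after normexp and quantile normalization, neither of which passed, and by 0.19 with the median difference set to 0 (adjusted p = 0.115). In siLoxL2 it was 0.18 ± 0.10 (adjusted p = 0.152), with the sign turned in the authors' deposited value table (−0.062) and with normexp and quantile normalization (−0.22, adjusted p = 0.0332). Podn was 0.91 ± 0.28 (adjusted p = 0.0229) and 0.81 ± 0.32 (adjusted p = 0.0599), and the first call was lost without siLoxL1 replicate 2 or 3 or scr replicate 2 or 4 (adjusted p = 0.0560 to 0.0623), with the median difference set to 0 (0.0550) and in 1 fit of all 16 arrays (0.0719). Bgn was −0.19 ± 0.057 in siLoxL1 (adjusted p = 0.0203), a call lost without siLoxL1 replicate 1 or 2 or scr replicate 3 (0.0515 to 0.0544). In siLoxL2 it was −0.0079 ± 0.057 (adjusted p = 0.916), with −0.24 in the authors' deposited value table (adjusted p = 0.00631), −0.15 after normexp and quantile normalization (0.0435) and −0.16 with the median difference set to 0 (0.0395).

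The order of the 4 groups therefore differed by gene. Fmod, Lum and Ogn were highest in scr. For Fmod and Lum the means of siLoxL1 (−2.10 and −2.15) and siLoxL2 (−1.99 and −2.15) lay within the SD of the siLox means (−1.80 ± 0.38 and −2.01 ± 0.83). The siLoxL1 mean of Fmod was still below the lowest siLox array (−2.05). Ogn fell into the order scr (3.70 ± 0.33), siLox (2.77 ± 0.53), siLoxL2 (2.01 ± 0.25) and siLoxL1 (1.77 ± 0.35), in which the arrays of siLoxL2 and siLoxL1 overlapped. Dcn was lowest in siLox (5.04 ± 0.40) and Podn too (−1.46 ± 0.93). Prelp stood higher in both groups of slide 2 than in scr or siLox, where most of its signals were not above background. Where the order crosses the slides, siRNA and slide cannot be told apart.

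Within groups the genes of the family varied together on slide 1 and less so on slide 2. Among the 6 genes measured on every array, Pearson's r between the deviations from the group means ran from 0.629 (Bgn with Dcn) to 0.981 (Lum with Ogn) over the 8 arrays of slide 1. On slide 2 it ran from −0.522 (Lum with Podn) to 0.901 (Dcn with Fmod), and Lum was below 0 with each of the others. Bgn with Fmod reached 0.939 on slide 1 and 0.779 on slide 2. These are descriptions over arrays that share a slide, its columns and their scaling. No background over other genes was computed per slide, so the values are not read as particular to the family.

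**Figure D4:**
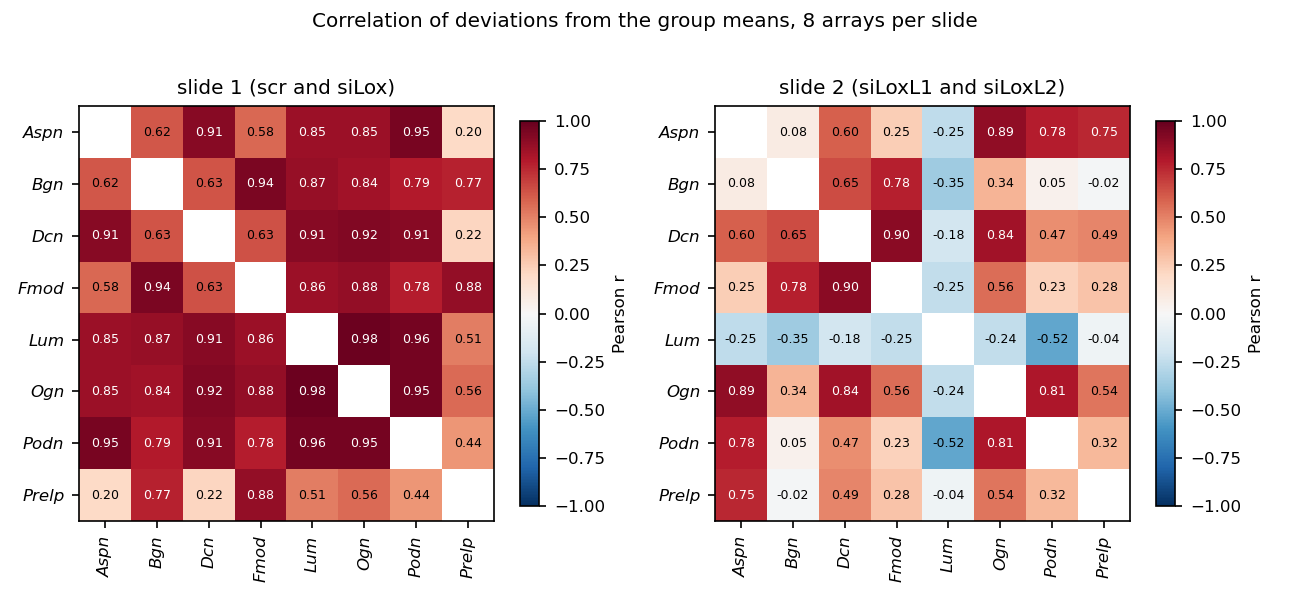
Pearson's r between the deviations of 8 genes from their group means, over the 8 arrays of slide 1 (left, scr and siLox) and of slide 2 (right, siLoxL1 and siLoxL2); the colour bar runs from −1 to 1. Values of Aspn, and of Prelp on slide 1, rest partly on signals not above background. Lum with Ogn reached 0.981 on slide 1, and on slide 2 Lum was below 0 with the other genes.

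Of 14358 genes compared over the deviations of all 16 arrays, the highest mean r with the 8 proteoglycan genes was that of Pdgfrl (0.824, single values 0.626 to 0.945), followed by Pth1r (0.821) and Itgb5 (0.817). The 8 include Aspn and Prelp with their background signals. These r pool both slides and were not computed per slide, and the spread was larger on slide 1. For Lum the SD was 0.45 in scr and 0.83 in siLox, against 0.18 in siLoxL1 and 0.17 in siLoxL2. Pdgfrl encodes a protein resembling the PDGF receptor, Pth1r the parathyroid hormone receptor and Itgb5 an integrin beta subunit. The median gene had a mean r of 0.0169 and the 95th percentile was 0.671.

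The other genes of the family and of its synthesis, binding and breakdown were read from lists. Of all probes 21.1% passed in siLox against scr, 9.67% higher and 11.5% lower, and 25% passed with 1 probe per gene. The list counts stand beside these shares and were not tested against them. In siLox against scr, of 6 tested other leucine-rich repeat family genes 1 passed, Optc at −0.63 ± 0.16 (adjusted p = 0.0347), the gene of opticin, which lies next to Prelp. Of 22 genes that build the linker and the chondroitin or dermatan chain, 4 fell and 1 rose, with a median of −0.27. The sulphotransferase gene Chst7 was at −0.72 ± 0.13 (adjusted p = 0.0157), the xylose kinase gene Fam20b at −0.65 ± 0.12 (adjusted p = 0.0147) and the chondroitin polymerising factor gene Chpf at −0.49 ± 0.12 (adjusted p = 0.0314). Ust, which adds sulphate to uronic acid, rose by 0.72 ± 0.17 (adjusted p = 0.0260).

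Of 10 genes that supply sulphate donor and UDP-sugars, 5 fell and 1 rose (median −0.24), where 21.1% of all probes passed. Papss1, which makes the sulphate donor PAPS, fell by 0.48 on the log2 scale (adjusted p = 0.0252) and Uxs1, which makes UDP-xylose, by 0.46 (adjusted p = 0.0226), while the PAPS transporter gene Slc35b2 rose by 0.44 (adjusted p = 0.0371) and Slc35d2 fell by 0.40 (adjusted p = 0.0210). Of 7 keratan sulphate genes 2 fell and 1 rose. Chst1, the sulphotransferase for keratan galactose, was at −1.09 ± 0.18 (adjusted p = 0.0125), the fucosyltransferase gene Fut8 at −0.29 ± 0.073 (adjusted p = 0.0319) and Chst2 at 0.32 ± 0.062 (adjusted p = 0.0174).

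Among 19 receptors and ligands bound by decorin and biglycan 8 fell and 1 rose (median −0.17), where 21.1% of all probes passed. The receptor gene Lrp1, whose product takes up decorin, was at −0.70 ± 0.17 (adjusted p = 0.0283), and Ccn4, a matricellular protein, at −0.72 ± 0.17 (adjusted p = 0.0266). Myostatin (Mstn) passed as lower (means −6.50 and −4.73, adjusted p = 0.0106), but 0 siLox arrays and 1 scr array measured it, and no fold is given. P2rx7, an ATP-gated channel, rose by 1.04 ± 0.21 (adjusted p = 0.0180). Of 10 protease genes 4 fell and 0 rose: the aggrecanases Adamts1 (−1.03 ± 0.21, adjusted p = 0.0189) and Adamts5 (−0.75 ± 0.21, adjusted p = 0.0441), the gelatinase Mmp2 (−0.57 ± 0.14, adjusted p = 0.0305) and Tll1 (−0.33 ± 0.10, adjusted p = 0.0498), of the family that cuts the biglycan propeptide. Of 9 other secreted proteoglycans, perlecan (Hspg2, −0.60 ± 0.16) fell and versican (Vcan, 0.39 ± 0.091) rose.

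Between siLoxL1 and siLoxL2 the same lists were read within slide 2. There 6.73% of all probes passed, 4.41% higher and 2.32% lower, and 8.81% with 1 probe per gene. Chain synthesis had 3 higher and 1 lower of 22: Xylt2, which starts the chain, was at 0.30 ± 0.043 (adjusted p = 0.0110), B4galt7 at 0.26 ± 0.053 (adjusted p = 0.0310), Chst14 at 0.19 ± 0.042 (adjusted p = 0.0396) and Chst13 at −0.61 ± 0.13 (adjusted p = 0.0332). Receptors and ligands had 3 higher and 1 lower of 19, with Egfr at 0.27 ± 0.045 (adjusted p = 0.0168), Pdgfa at 0.24 ± 0.051 (adjusted p = 0.0344), Igf1r at 0.16 ± 0.038 (adjusted p = 0.0451) and Tgfb2 at −0.29 ± 0.049 (adjusted p = 0.0185). Chadl of the wider family (0.42 ± 0.085), the sulphate transporter gene Slc26a2 (0.19 ± 0.044), Chst1 (0.18 ± 0.044) and Vcan (0.33 ± 0.046) were higher, and serglycin (Srgn, −0.23 ± 0.054) was lower in siLoxL1. Of the 10 protease genes 0 passed, the nearest being Adamts4 at 0.21 ± 0.065 (limma adjusted p = 0.0965).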

How the data were processed

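The labels of the 16 samples gave their groups and replicate numbers. Per the file headers and the submitters' processing notes, the scanner files hold intensity values per spot from Agilent Feature Extraction 10.7.3.1, already background subtracted within the array. The authors' deposited value table holds log2 values with the same distribution on every array (sorted columns differ by at most 0.000965, medians all 4.83) and was used as an alternative. Its columns and the log2 scanner values correlated at r = 0.997 to 0.999. The table's normalization was not given in the sources used here. Other deposited columns used were flags of 0 or 1 per spot (well above background, saturated, outlier). Spots flagged as outliers and control spots were left out, repeat spots were averaged, and the array's 75th percentile was subtracted after taking log2. That percentile was 8.67 to 9.03 on slide 1 and 9.74 to 9.90 on slide 2. No spot was saturated, and r between arrays within groups was 0.986 to 0.998.

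Probes that stood well above background across the 4 arrays of some group were tested with limma 3.58.1 (lmFit, eBayes) in R 4.3.3, after 46 without a usable spot on some array were dropped. Each comparison was fitted on its own 8 arrays, since the spread was larger on slide 1, with Benjamini-Hochberg adjustment over the 32430 probes and a threshold of 0.05. The comparisons across slides still pool a group of each slide into a single variance per probe, so their SE and adjusted p assume equal spread. Single genes were also tested with exact two-sided permutation tests over arrays. The fit was also run on simulated data with noise drawn independently for each probe. Such data cannot test the fit on arrays whose probes deviate together. Gene names are those of the scanner files, 50.3% of probes matched a RefSeq accession (not that of Prelp), and the brightest tested probe stood for a list gene.

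The 9 genes were given by name. The named genes are these 9 in every comparison, up to 4 genes per list and within-slide comparison with the largest difference among those that passed or else the 1 nearest the threshold, Lox, Loxl1 and Loxl2, Col1a1, Pdgfra and Thy1, the 2 brightest markers of each other list, and the 3 genes most alike. Genes named beyond these were chosen after their values were seen. The members, the lists (other family genes, chain synthesis, sulphate and sugar supply, keratan sulphate, receptors and ligands, proteases, other proteoglycans, and markers of fibroblasts, epithelial, endothelial, leukocyte, mesothelial, pericyte and tendon or bone cells) and the tests were chosen with earlier results of these data known. Alternatives were a fit of all 16 arrays, the authors' table, normexp (offset 50) with quantile normalization, median scaling, no filter on dim probes, 1 probe per gene, the replicate number as a block and arrays left out. Setting the median difference to 0 was chosen after seeing the data. The result of 1 marker gene is not reported here.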

Additional observations from a re-analysis of the deposited data

Results flagged for a closer look

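In siLox the levels of 2 genes had 1 array far from the other 3. Bgn read 5.44 on siLox replicate 4 and 5.19 to 5.23 on the others, a gap of 0.835 of the group's range. Fmod read −1.24 on the same array and −2.05 to −1.92 on the others, a gap of 0.841 of the range, both past the limit of Dixon's test for 4 arrays. These were 2 of 36 groups of 4 arrays examined, and chance flags about 1 in 20. On both genes the array stood toward the scr level, and it also had the highest Lox level of its group (2.04).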

How the results depend on the processing

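For siLox against scr, the count of proteoglycan genes called (2 of 8, with 6851 of all probes) was 7 in 1 fit of all 16 arrays (12844 probes), 5 with normexp and quantile normalization (8687 probes), 1 with median scaling (6224 probes), 1 with no filter on dim probes (2623 probes), 6 without replicate 4 of both groups (9745 probes), and 0 to 6 without 1 array (1745 to 9937 probes, with 6290 where 6 genes were called). The 16-array fit takes its spread from both slides. With the replicate number as a block it was 0 of 8, and 0 of all probes passed. Same-numbered arrays deviated with correlations of −0.152 to −0.00356, so the numbers do not pair these arrays, and 0 of 8 arrays correlated best with their own number. Every difference of the 8 genes kept its sign under these alternatives.

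For siLoxL1 against siLoxL2 the count of 0 became 1 with the authors' table (Bgn), 2 with normexp (Bgn and Dcn) and 1 with 1 probe per gene (Bgn), and stayed 0 without any 1 array. Over all probes (2182) it was 1033 in the 16-array fit, 3538 with normexp, 412 with no filter, 515 with the replicate block and 564 to 1320 without 1 array. Correlations of same-numbered arrays were 0.0393 to 0.203, and 7 of 8 arrays correlated best with their own number. Lum was −0.016 with normexp and −0.061 to 0.080 without 1 array, and Podn −0.074 to 0.31.

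Against scr, all probes with no filter numbered 33809 for siLoxL1 (19187 with it) and 32794 for siLoxL2 (18920), and siLoxL2 had 8 genes called with normexp, against 5 as reported and 5 or 6 under the other alternatives. Dcn in siLoxL2 was −0.062 in the authors' table and −0.22 with normexp, and Bgn was −0.031 to 0.020 without 1 array. The replicate block ended the siLoxL1 calls of Bgn (adjusted p = 0.0787) and Podn (0.0583), and changed no other call of the 8 genes in the comparisons across slides. Signals near background limit Aspn, Omd and, on slide 1, Prelp. The causes of these shifts were not tested.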
